A study of Mus musculus with 7 samples.

Results

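The genes described here are 10 transcriptional regulators of blood stem cells: the core-binding factor genes Runx1, Runx2, Runx3 and Cbfb, the ETS genes Erg, Fli1 and Etv6, and the genes Tal1, Lyl1 and Lmo2. They were taken by gene symbol from the 22680 genes of the deposited table, all 10 were found, and all 10 reached the expression minimum used for testing, a mean of 1 FPKM over the LSK libraries. FPKM is the number of sequenced fragments scaled by transcript length and by sequencing depth, so levels of genes of unlike length can be roughly compared. RNA came from fetal liver cells of C57BL/6 mice, sorted at 13.5 days post coitum. There were 3 libraries of Uhrf1-/- LSK cells, 1 library of wild-type LK cells and 3 libraries of wild-type LSK cells. The LSK gate takes lineage-negative cells positive for both Sca-1 and c-Kit, among them the stem cells. The LK gate takes c-Kit-positive cells that lack Sca-1 and are further along in differentiation. Uhrf1 encodes a protein that brings the maintenance DNA methyltransferase to newly replicated DNA. The sources used here do not say how the deletion was made, in which cells, or which animals went into each library, and the p-values below therefore measure the spread between these libraries, which may be partly technical.

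RUNX proteins bind DNA as a pair with CBFB, which does not touch DNA itself and stabilises the complex. TAL1 and LYL1 are related basic helix-loop-helix factors that bind DNA together with E proteins. LMO2 is a bridging protein without DNA contact that joins them to GATA factors, in a complex that also holds LDB1. TAL1, LYL1 and LMO2 form, together with ERG, FLI1, RUNX1 and GATA2, the group of 7 factors called the heptad. The heptad occupies shared enhancers in blood stem and progenitor cells. ETV6 is an ETS repressor needed for stem cell maintenance in the bone marrow. In mice, Runx1, Tal1 and Lmo2 are required for blood cells to form, Runx2 is best known from bone, and Runx3 from lymphocytes and sensory neurons.

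The level of Uhrf1 followed the genotype labels, with 8.78 to 18.6 FPKM in Uhrf1-/- LSK cells, 115.9 FPKM in LK cells and 63.0 to 112.8 FPKM in wild-type LSK cells. Read totals estimated from the deposited values lay between 16808525 and 25803045 per library. The sort could be seen in Ly6a, which encodes Sca-1, at 36.9 to 96.4 FPKM in Uhrf1-/- LSK, 0.321 FPKM in LK and 26.4 to 56.8 FPKM in wild-type LSK cells. Replicate 3 stood apart from replicates 1 and 2 in both genotypes, and wild-type replicate 2 had a low share of its count values in ribosomal protein genes (4.23%, against 9.70% to 14.4% in the other libraries). The summed FPKM of the macrophage complement genes was 33.4, 35.4 and 2.12 in Uhrf1-/- replicates 1, 2 and 3 and 146.5, 70.1 and 1.12 in the wild-type replicates.

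None of these 10 genes passed the test for a difference between Uhrf1-/- and wild-type LSK cells, and the estimated difference was under 0.7 log2 units for each. The comparison used limma on log2(FPKM + 1) over the 6 LSK libraries, adjusted over 10608 tested genes. By limma 0 members were higher and 0 lower at an adjusted p under 0.05, with adjusted p-values from 0.850 to 0.950. Over all tested genes 0.170% were called, 0.113% higher and 0.0566% lower. With the replicate number as a block, 2.06% of all tested genes were called (1.23% higher and 0.830% lower) and again 0 members, with limma adjusted p-values from 0.246 to 0.763. At an unadjusted p under 0.05 stood 1 member without the block (5.57% of all tested genes) and 2 with it (12.0%). The log2 fold changes were positive for 4 members and negative for 6, with a median of -0.22, where all tested genes had a median of -0.03. In 5 members the difference had the same sign in all 3 same-numbered pairs of libraries, as it had in 32.2% of all tested genes. Tal1 was the 1 member whose ranges did not overlap between genotypes, which was the case for 10.8% of all tested genes. In these bulk samples a change in the share of a cell type and a change in RNA per cell cannot be told apart.

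**Figure D1:**
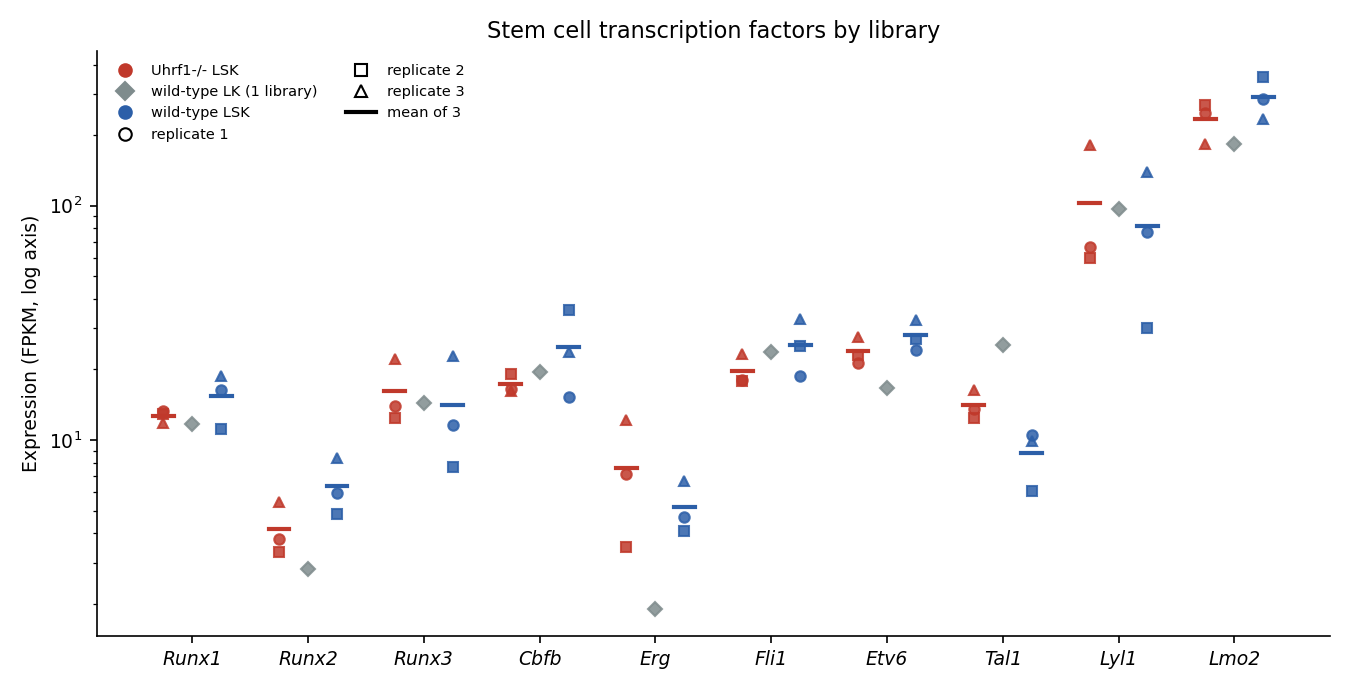
Expression of the 10 genes in each library, in FPKM on a log axis, with Uhrf1-/- LSK cells on the left, the single LK library in the middle and wild-type LSK cells on the right of each gene. Points are libraries, with the marker giving the replicate number, and bars are means of 3; Lmo2 is at the top in every library and the genotypes overlap in all genes but Tal1.

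The core-binding factor genes are described first. Runx1 (Entrez gene 12394; chromosome 16, 92601466 to 92826074 of GRCm38, minus strand), the family member required for the first blood stem cells, was at 13.2, 12.9 and 11.9 FPKM in Uhrf1-/- replicates 1, 2 and 3 and at 16.3, 11.2 and 18.7 FPKM in the wild-type replicates. The Uhrf1-/- values were close together and lay within the wild-type range. The log2 fold change was -0.23 (SE 0.27, 95% interval -0.83 to 0.36, limma adjusted p = 0.943), an interval that covers 0.563-fold to 1.28-fold on the scale of FPKM + 1. Without wild-type replicate 2 the value was -0.43, and without wild-type replicate 3 it was -0.086. Runx2 (Entrez gene 12393; chromosome 17, 44495987 to 44814797, minus strand) stood at 3.78, 3.33 and 5.43 FPKM in Uhrf1-/- cells and at 5.92, 4.82 and 8.40 FPKM in wild-type cells. It was lower in Uhrf1-/- cells within each of the 3 pairs, by -0.53, -0.42 and -0.55 log2 units, though the ranges of the groups overlapped. Its log2 fold change of -0.50 (SE 0.29) did not pass (limma adjusted p = 0.942, blocked 0.404). Runx3 (Entrez gene 12399; chromosome 4, 135120645 to 135177990, plus strand) was at 13.9, 12.4 and 22.2 FPKM in Uhrf1-/- cells and at 11.6, 7.63 and 22.9 FPKM in wild-type cells. Both groups were split in the same way, with replicate 3 highest, and the log2 fold change was 0.28 (SE 0.38, limma adjusted p = 0.943). Its sign turned without wild-type replicate 2 (-0.06). Cbfb (Entrez gene 12400; chromosome 8, 105170674 to 105217989, plus strand), the partner subunit, had 16.5, 19.1 and 16.2 FPKM in Uhrf1-/- cells and 15.3, 36.0 and 23.8 FPKM in wild-type cells. Wild-type replicate 2 was the highest value by far, and the log2 fold change of -0.43 (SE 0.32, limma adjusted p = 0.942) was -0.14 without that library and -0.73 without wild-type replicate 1.

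The 3 Runx genes share a sequence feature at their distal promoters, which is shown because RUNX proteins bind the letters in question. RefSeq (GRCm38.p6) gives windows from 250 bases before to 50 after a start site, and 13 windows were found for 8 of the 10 genes (Fli1 and Lmo2 had none). The 7 letters AACCACA, a core recognised by RUNX proteins, were searched on both strands and were found in 5.27% of all 32851 windows. The distal window of each Runx gene held a pair of them with a single base between, AACCACAGAACCACAAG, in capitals below.
Runx1, chr16:92826025-92826102, minus strand: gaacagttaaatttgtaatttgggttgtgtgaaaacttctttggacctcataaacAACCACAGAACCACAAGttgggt
Runx2, chr17:44814583-44814660, minus strand: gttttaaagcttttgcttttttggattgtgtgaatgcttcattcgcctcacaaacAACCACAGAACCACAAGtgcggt
Runx3, chr4:135120455-135120532, plus strand: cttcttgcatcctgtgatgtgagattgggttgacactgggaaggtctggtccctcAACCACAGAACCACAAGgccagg

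These 17 letters were read from the Runx windows themselves, so their rarity elsewhere is no test, and they were present in 4 of the 32851 windows (0.0122%). At least 2 matches of AACCACA were present in 67 windows (0.204%). The fourth belongs to Gm16225, a long noncoding RNA gene that starts on the opposite strand next to Runx3, whose window covers the same bases. The pair begins 27 and 22 bases after the annotated start site in Runx1 and Runx2 and 135 bases before it in Runx3 (position -135). Outside the pair the stretches were less alike: of the 55 bases before it, 24 were equal between Runx1 and Runx2, 19 between Runx1 and Runx3 and 16 between Runx2 and Runx3. The distal windows of Runx1, Runx2 and Runx3 held 2, 2 and 8 CG pairs, the sites of DNA methylation that Uhrf1 maintains, where the median window held 7. The proximal windows of Runx1 and Runx3 held 35 and 45, more than 93.0% and 98.1% of all windows. The Runx1 proximal window is printed with CG in capitals, as the base composition differs so much from that of the distal window.
Runx1, chr16:92697280-92697579, minus strand: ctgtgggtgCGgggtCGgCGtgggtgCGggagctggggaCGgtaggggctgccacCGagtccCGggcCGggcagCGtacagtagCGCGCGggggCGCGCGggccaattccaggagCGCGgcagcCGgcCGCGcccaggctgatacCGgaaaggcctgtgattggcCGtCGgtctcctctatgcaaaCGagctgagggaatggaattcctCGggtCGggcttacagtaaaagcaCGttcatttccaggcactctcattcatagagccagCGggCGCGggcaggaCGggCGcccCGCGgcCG

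The deposited values are per gene, so they do not show which promoter was used, and methylation was not measured in these files.

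Among the Runx genes, Runx1 and Runx3 made up most of the family's summed FPKM in every library. Runx2 took 12.2%, 11.6% and 13.8% of it in Uhrf1-/- replicates 1, 2 and 3, 9.75% in LK cells and 17.5%, 20.4% and 16.8% in the wild-type LSK replicates. The Uhrf1-/- shares of Runx2 were thus all below the wild-type ones, though its FPKM ranges overlapped between genotypes. Several shares and ratios were read, and how often such a separation arises in other gene families was not determined. Runx3 was at 1.05, 0.956 and 1.87 times the FPKM of Runx1 in Uhrf1-/- replicates 1, 2 and 3 and at 0.714, 0.683 and 1.22 times in the wild-type replicates. Within each pair the ratio was higher in Uhrf1-/- cells, but in both genotypes replicate 3 was well above the others. Cbfb was present at 0.410 to 0.667 times the summed FPKM of the Runx genes in Uhrf1-/- cells, at 0.672 times in LK cells and at 0.451, 1.52 and 0.475 times in the wild-type LSK replicates. These shares are descriptions and were not tested.

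**Figure D2:**
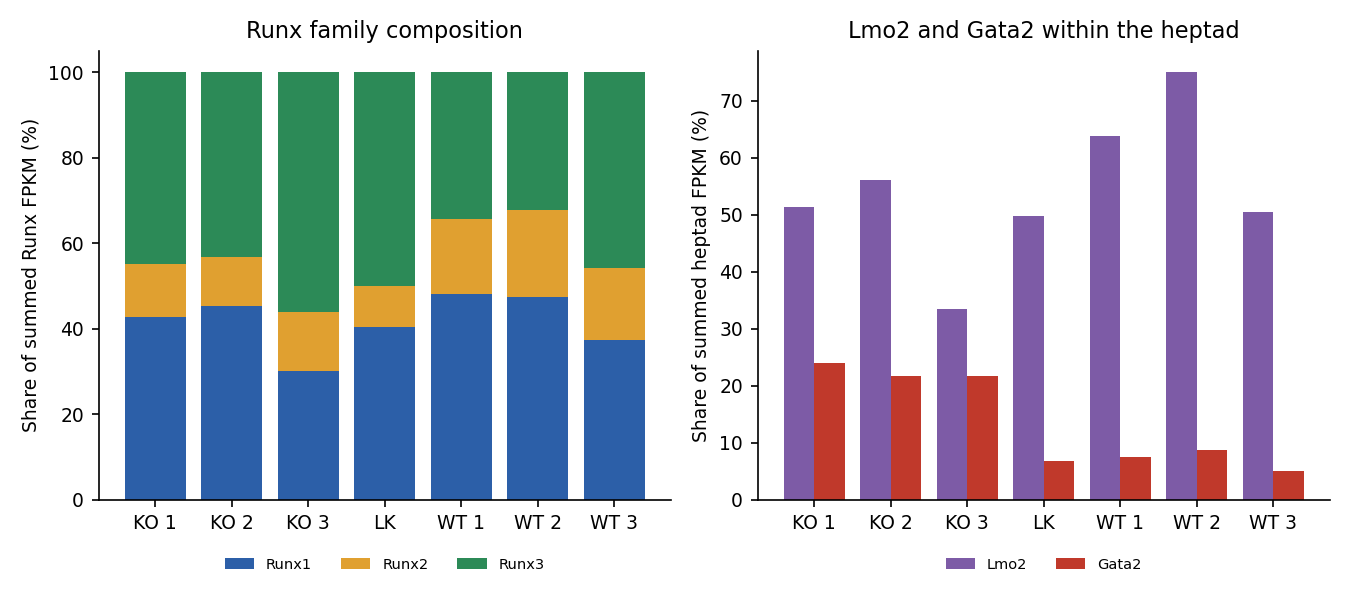
Left, share of the summed Runx1, Runx2 and Runx3 FPKM taken by each gene in each library; right, shares of Lmo2 and Gata2 in the summed FPKM of the 7 heptad genes. KO is Uhrf1-/- LSK and WT is wild-type LSK, numbered by replicate. Runx2 shares were 11.6% to 13.8% in Uhrf1-/- and 16.8% to 20.4% in wild-type LSK cells, a difference that was not tested.

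Among the ETS genes, Erg had a positive estimate and Fli1 and Etv6 negative ones, and none passed the test. Erg (Entrez gene 13876; chromosome 16, 95359169 to 95586600, minus strand), needed to maintain stem cells in the fetal liver and adult marrow, was at 7.17, 3.49 and 12.1 FPKM in Uhrf1-/- replicates 1, 2 and 3 and at 4.71, 4.10 and 6.67 FPKM in the wild-type replicates. The Uhrf1-/- libraries spread beyond the wild-type range on both sides. Its log2 fold change was 0.37 (SE 0.38, limma adjusted p = 0.942), and it was -0.0023 without Uhrf1-/- replicate 3. Fli1 (Entrez gene 14247; chromosome 9, 32422204 to 32543432, minus strand), an ETS factor of stem cells, megakaryocytes and endothelium, had 18.0, 17.9 and 23.3 FPKM in Uhrf1-/- cells and 18.8, 25.1 and 32.7 FPKM in wild-type cells. All 3 pairs were lower in Uhrf1-/- cells, with a log2 fold change of -0.33 (SE 0.28, limma adjusted p = 0.942). It was -0.53 without wild-type replicate 1 and -0.14 without wild-type replicate 3. Etv6 (Entrez gene 14011; chromosome 6, 134035700 to 134270158, plus strand) had the lowest coefficient of variation of the 10 genes over the LSK libraries (15.4%), at 21.2, 23.1 and 27.6 FPKM in Uhrf1-/- cells and at 24.3, 27.1 and 32.5 FPKM in wild-type cells. The pairs differed by -0.19, -0.22 and -0.23 log2 units, and the log2 fold change was -0.21 (SE 0.25, 95% interval -0.77 to 0.35, limma adjusted p = 0.943), and -0.10 without wild-type replicate 3.

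Erg and Fli1 are close relatives, and Fli1 was the more abundant in every library. Fli1 stood at 2.51, 5.13 and 1.92 times the FPKM of Erg in Uhrf1-/- replicates 1, 2 and 3, at 12.5 times in LK cells and at 3.99, 6.12 and 4.91 times in the wild-type LSK replicates. Erg rested on the fewest reads of the 10 genes, an estimated 124 to 461 reads in Uhrf1-/- LSK, 82 in LK and 157 to 367 in wild-type LSK cells. Endothelial cells also express Erg and Fli1. The endothelial cadherin gene Cdh5 was at 1.40 to 1.60 FPKM in Uhrf1-/- LSK, 0.0372 FPKM in LK and 0.542 to 1.09 FPKM in wild-type LSK cells, and the receptor gene Kdr stayed between 0.126 and 0.176 FPKM in all 7 libraries. These markers were picked after their values were seen. The whole list of 16 endothelial markers summed to 543.2 to 658.4 FPKM in Uhrf1-/- LSK, 144.6 FPKM in LK and 567.8 to 957.2 FPKM in wild-type LSK cells, and of its 11 tested genes 6 had positive and 5 negative log2 fold changes. Their part in the Erg and Fli1 values was not tested.

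Tal1 was the member with the largest difference between genotypes. Tal1 (Entrez gene 21349; chromosome 4, 115056426 to 115071755, plus strand), a master regulator of blood formation that stays on in the erythroid, megakaryocyte and mast cell lineages, was at 13.6, 12.5 and 16.4 FPKM in Uhrf1-/- replicates 1, 2 and 3, at 25.5 FPKM in LK cells and at 10.5, 6.04 and 9.86 FPKM in the wild-type LSK replicates. All Uhrf1-/- libraries were above all wild-type LSK libraries and below the LK library. The means were 14.2 ± 2.01 FPKM in Uhrf1-/- and 8.79 ± 2.40 FPKM in wild-type cells (SD, n = 3 each). The log2 fold change was 0.65 (SE 0.28, 95% interval 0.03 to 1.28) and positive in 3 of 3 pairs, with differences of 0.35, 0.94 and 0.68. Without wild-type replicate 2, the lowest library, it was 0.43, and without wild-type replicate 1 it was 0.79. The difference over all 6 LSK libraries did not pass after adjustment over all genes (limma adjusted p = 0.850, blocked 0.246). Markers of the lineages in which Tal1 is active were read beside it. By limma, 1 of 9 erythroid, 2 of 7 megakaryocyte and 1 of 3 mast cell and basophil genes tested were higher in Uhrf1-/- cells. Of all tested genes 0.113% were. The lists were chosen with earlier results of these data known, so this contrast is no test. With any 1 library left out, 0 erythroid, 0 megakaryocyte and at most 1 mast cell and basophil gene were called higher. Of the erythroid estimates 5 were positive and 4 negative. The summed erythroid level overlapped between genotypes, and the part of these cell types in the Tal1 difference was not tested.

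Lyl1 (Entrez gene 17095; chromosome 8, 84701423 to 84704716, plus strand), the close relative of Tal1, varied more between libraries than any other member, at 66.9, 60.0 and 181.9 FPKM in Uhrf1-/- replicates 1, 2 and 3 and at 77.1, 30.1 and 139.3 FPKM in the wild-type replicates. Replicate 3 was highest and replicate 2 lowest in both genotypes. The log2 fold change of 0.38 had the widest interval, from -1.02 to 1.79 (SE 0.61, limma adjusted p = 0.950), and its sign turned without wild-type replicate 2 (-0.20) or Uhrf1-/- replicate 3 (-0.12). An exon of Nfix lies on the opposite strand of Lyl1 in the GENCODE M21 annotation, and since strand use in counting is not given, reads of the overlap cannot be assigned. Antisense genes overlap exons of Runx1, Runx2 and Etv6 in the same way. Nfix itself was at 19.98, 18.2 and 23.2 FPKM in Uhrf1-/- and at 15.7, 6.61 and 10.7 FPKM in wild-type cells. Lyl1 exceeded Tal1 in FPKM 4.81-fold to 11.1-fold in Uhrf1-/- LSK, 3.79-fold in LK and 4.98-fold to 14.1-fold in wild-type LSK cells.

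Lmo2 (Entrez gene 16909; chromosome 2, 103957903 to 103981878, plus strand), the bridging protein, was the most abundant of the 10 genes in every library. It stood at 249, 268 and 184 FPKM in Uhrf1-/- replicates 1, 2 and 3, at 183 FPKM in LK cells and at 284, 353 and 236 FPKM in the wild-type LSK replicates. In all 3 pairs the Uhrf1-/- library was lower, by -0.19, -0.40 and -0.36 log2 units. The log2 fold change was -0.31 (SE 0.33, limma adjusted p = 0.942). Its mean over the LSK libraries was above that of 94.9% of the tested genes, while Runx2, the lowest of the 10 by that mean, was above 32.9%. By these means Lmo2 and Lyl1 were followed by Etv6, Fli1 and Cbfb (26.0, 22.6 and 21.1 FPKM). Runx3, Runx1 and Tal1 came next (15.1, 14.0 and 11.5 FPKM). The order changed between libraries, and differences between genes were not tested. In wild-type replicate 2 Cbfb (36.0 FPKM) was above Lyl1 (30.1 FPKM). Erg and Runx2 also exchanged places, with Erg lowest in all wild-type libraries and Runx2 lowest in all Uhrf1-/- libraries.

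The promoter windows of Tal1 and Lyl1 are shown because both genes are known to be regulated by the factors of this group. Capitals mark AGATAA, letters bound by GATA factors, here on the opposite strand, and CATCTG, an E-box, in the first Tal1 window. In the Lyl1 window they mark CCGGAA, the ETS letters, or its reverse complement.
Tal1, chr4:115056176-115056475, plus strand: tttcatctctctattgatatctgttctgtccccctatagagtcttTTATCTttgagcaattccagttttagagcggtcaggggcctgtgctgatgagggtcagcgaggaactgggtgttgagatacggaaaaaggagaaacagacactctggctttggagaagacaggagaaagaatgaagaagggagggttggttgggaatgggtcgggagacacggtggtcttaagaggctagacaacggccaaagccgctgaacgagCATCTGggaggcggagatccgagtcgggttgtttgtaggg
Lyl1, chr8:84701207-84701506, plus strand: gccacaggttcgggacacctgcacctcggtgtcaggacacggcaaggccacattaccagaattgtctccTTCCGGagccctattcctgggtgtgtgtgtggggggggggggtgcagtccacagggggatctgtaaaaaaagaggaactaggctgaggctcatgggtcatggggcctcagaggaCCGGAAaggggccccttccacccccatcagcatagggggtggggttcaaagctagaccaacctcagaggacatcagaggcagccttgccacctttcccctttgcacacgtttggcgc

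Of all windows, 11.2% held AGATAA, 17.2% held CATCTG and 14.9% held CCGGAA on either strand, and 3.59% held CCGGAA at least 2 times, as Lyl1 does. Of the 13 windows of members, 2 held AGATAA, 1 held CATCTG and 2 held CCGGAA. The windows not marked here were the third of Erg for AGATAA and the proximal one of Runx1 for CCGGAA. The second Tal1 window held none of these letters. A match of letters is not evidence of binding.

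**Figure D3:**
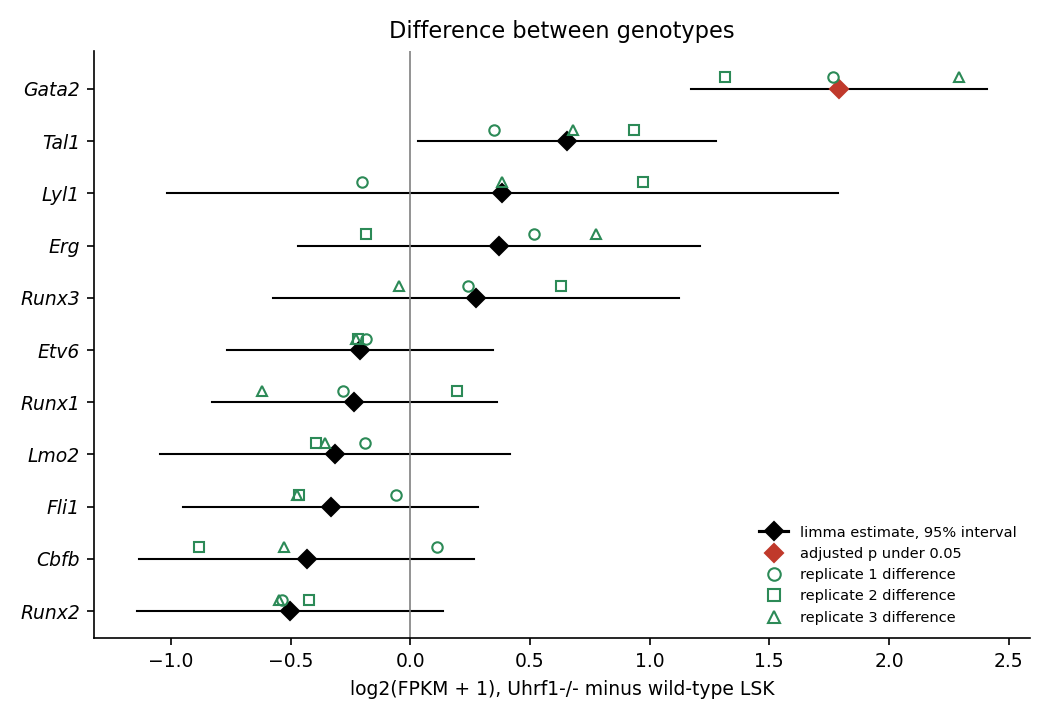
Difference in log2(FPKM + 1), Uhrf1-/- minus wild-type LSK cells, for the 10 genes and Gata2. Diamonds with lines are limma estimates with unadjusted 95% intervals, and open green markers are the differences of the same-numbered libraries. Gata2 (1.79) is the factor of the heptad past a limma adjusted p of 0.05, though not when any LSK library is left out. Tal1 (0.65) is next in size and did not pass (limma adjusted p = 0.850).

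The seventh factor of the heptad, Gata2, rose in the same fit. Gata2, a zinc finger factor active in stem cells, mast cells and early megakaryocyte and red cell progenitors, was at 116.2, 103.5 and 119.1 FPKM in Uhrf1-/- replicates 1, 2 and 3, at 24.7 FPKM in LK cells and at 33.4, 41.0 and 23.5 FPKM in the wild-type LSK replicates. Its log2 fold change was 1.79 (SE 0.28, limma adjusted p = 0.039). Gata2 made up 21.6% to 24.0% of the summed FPKM of the 7 heptad genes in Uhrf1-/- LSK, 6.72% in LK and 5.04% to 8.70% in wild-type LSK cells. Lmo2 made up 33.5% to 56.1% of it in Uhrf1-/- LSK, 49.9% in LK and 50.5% to 75.0% in wild-type LSK cells. The 7 genes together summed to 478.7 to 548.4 FPKM in Uhrf1-/- and 445.0 to 470.7 FPKM in wild-type LSK cells. Gata2 did not pass the threshold when any 1 of the 6 LSK libraries was left out (adjusted p from 0.096 to 0.129), and it passed with the replicate block (0.00046). The log2 fold change was between 1.58 and 1.97 with 1 library left out. Whether its change differs from that of the other factors was not tested.

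Replicate 3 differed from replicates 1 and 2 more than the genotypes did for several members. With a limit of 0.5 log2 units chosen after the values were seen, Lyl1, Runx3 and Erg were higher in replicate 3 than the mean of replicates 1 and 2 in both genotypes, as were 7.67% of all tested genes. For Lyl1 the difference was 1.51 in Uhrf1-/- and 1.51 in wild-type cells, for Runx3 0.713 in Uhrf1-/- and 1.196 in wild-type cells, and for Erg 1.12 in Uhrf1-/- and 0.51 in wild-type cells. Runx2 lay at the limit, with 0.4997 in Uhrf1-/- and 0.57 in wild-type cells. No member was lower by 0.5 in both genotypes, as 9.41% of tested genes were, and Lmo2 came closest, with -0.49 in Uhrf1-/- and -0.43 in wild-type cells. Runx1 went in opposite directions, with -0.13 in Uhrf1-/- and 0.44 in wild-type cells. What the replicate number shares is not given in the labels. Beside these values, the immediate-early gene Junb was at 22.4 FPKM in replicate 3 and at 250.4 and 214.7 FPKM in replicates 1 and 2 of Uhrf1-/- cells, and at 5.31 FPKM in replicate 3 and at 197.7 and 188.5 FPKM in replicates 1 and 2 of wild-type cells. The part of these differences in the members' values was not tested.

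**Figure D4:**
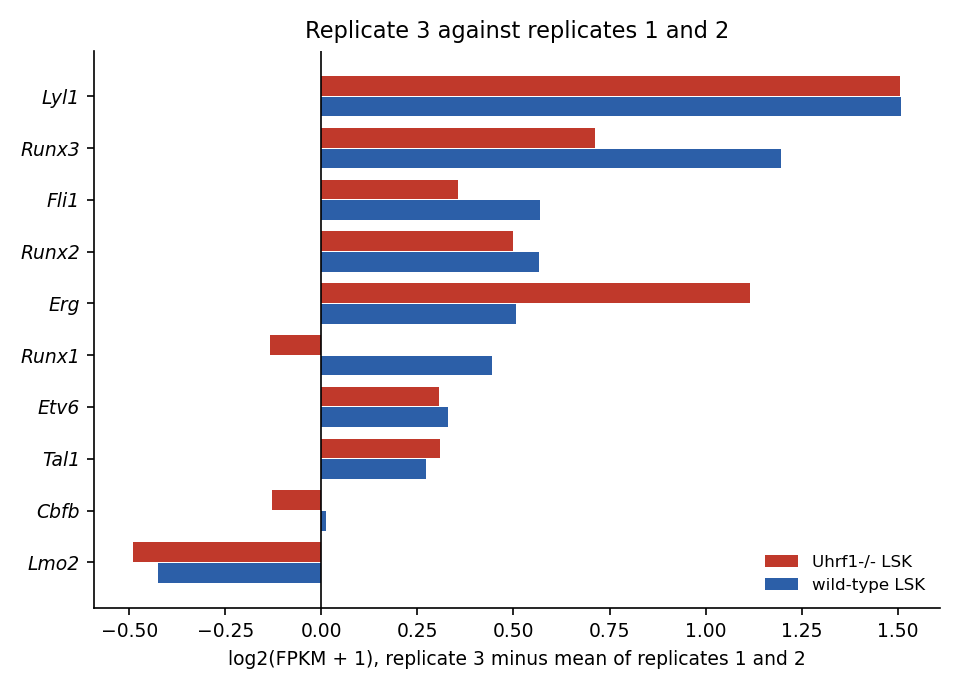
Difference in log2(FPKM + 1) between replicate 3 and the mean of replicates 1 and 2, within Uhrf1-/- LSK and wild-type LSK cells. Bars are single differences without error; Lyl1 was higher by 1.51 in both genotypes and Lmo2 lower in both.

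The LK library was set against the 3 wild-type LSK libraries, which asks how these factors change as Sca-1 is lost in differentiation. With 1 LK library the difference has no replicate check and no test. Junb in LK (8.09 FPKM) was nearest to wild-type replicate 3 (197.7, 188.5 and 5.31 FPKM in replicates 1, 2 and 3). The summed macrophage complement genes were too (0.771 FPKM in LK and 146.5, 70.1 and 1.12 FPKM in those replicates). Against wild-type replicate 3 alone, every member but Tal1 was lower in LK, also Lyl1 (96.7 against 139.3 FPKM). The part of this in the differences below was not tested. Tal1 was higher in LK cells, at 25.5 FPKM, against 6.04 to 10.5 FPKM in wild-type LSK cells (a difference of 1.47 log2 units), and it was the 1 member at least 1 log2 unit above the LSK mean, where 8.17% of all tested genes were. Erg was the 1 member at least 1 unit below it (1.90 FPKM, against 4.10 to 6.67 FPKM in wild-type LSK cells, a difference of -1.07), where 13.1% of tested genes were. Runx2 (2.82 FPKM in LK, 4.82 to 8.40 FPKM in wild-type LSK), Etv6 (16.7 FPKM in LK, 24.3 to 32.5 FPKM in wild-type LSK) and Lmo2 (183 FPKM in LK, 236 to 353 FPKM in wild-type LSK) were also below the wild-type LSK range, by -0.92, -0.70 and -0.65 log2 units from its mean. In all, the LK value was outside that range in 5 members (63.6% of tested genes), below it in 4 (31.1% of tested genes), above it in 1 (32.5%) and inside it in 5, namely Runx1, Runx3, Cbfb, Fli1 and Lyl1. The deposited count column, scaled to equal library totals, gave lower LK values for several members, so that Runx2 (-1.40) and Etv6 (-1.04) joined Erg beyond 1 unit, and without wild-type LSK replicate 3 no member was beyond 1 unit below. The erythroid markers summed to 1532 FPKM in the LK library and 81.9 to 369.4 FPKM in wild-type LSK libraries. The endothelial markers summed to 144.6 FPKM in the LK library and 567.8 to 957.2 FPKM in wild-type LSK libraries. Of that sum, the cadherin gene Cdh5 gave 0.0372 FPKM in LK and 0.542 to 1.09 FPKM in wild-type LSK libraries. Other genes of the list thus made up most of it. The part of these cell types in the Tal1 and Erg differences was not tested.

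**Figure D5:**
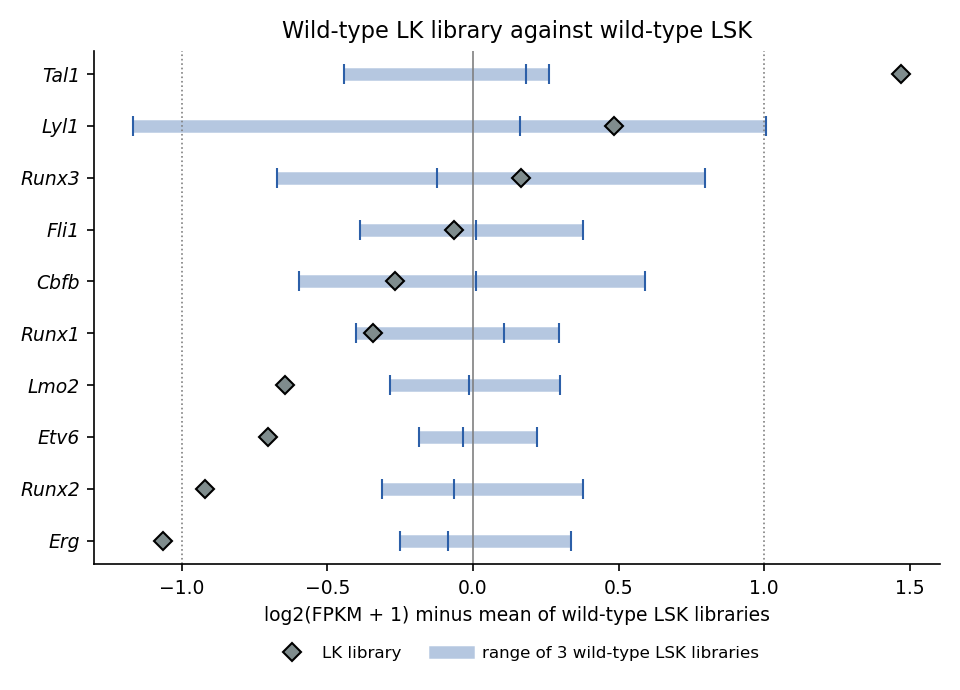
Level of each gene in the wild-type LK library (diamond) relative to the mean of the 3 wild-type LSK libraries, in log2(FPKM + 1). Blue bars span the 3 wild-type LSK libraries and ticks mark each one; Tal1 is above, and Erg, Runx2, Etv6 and Lmo2 are below, the wild-type LSK range.

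Genes whose products work with these factors were taken from 4 lists. These were chosen with earlier results of these data known, so their counts of called genes are no test. Of 22 partners of the TAL1-LMO2 complex, 19 were tested, 2 rose and 0 fell in Uhrf1-/- cells, with a median log2 fold change of 0.07 (all tested genes -0.03). These were Gata2 and Gata1, the GATA factor of red cell and platelet formation, at 54.3, 55.5 and 68.3 FPKM in Uhrf1-/- cells, 133.0 FPKM in LK cells and 8.015, 9.18 and 2.09 FPKM in wild-type LSK cells (log2 fold change 3.19, SE 0.42, limma adjusted p = 0.021). Gata1 did not pass without wild-type replicate 1 or 2 or Uhrf1-/- replicate 2 or 3 (adjusted p from 0.062 to 0.104). With the block the same 2 were called. The scaffold gene Ldb1 was at 152.7, 131.7 and 174.6 FPKM in Uhrf1-/- and at 150.9, 84.4 and 102.0 FPKM in wild-type cells, and the E protein gene Tcf3 was at 72.8, 65.7 and 54.2 FPKM in Uhrf1-/- and at 62.7, 97.9 and 44.1 FPKM in wild-type cells. Neither passed (limma adjusted p = 0.942 and 0.997). Of 21 other ETS genes, 13 were tested and 0 passed in the limma fit with or without the block, with 1 and 2 at an unadjusted p under 0.05 (without and with it) and a median of -0.23. The largest difference was in Ets1 (1.17, 1.29 and 0.800 FPKM in Uhrf1-/- and 2.04, 2.59 and 1.81 FPKM in wild-type cells, log2 fold change -0.59, limma adjusted p = 0.792), followed by Elf1 (-0.53). Of 12 RUNX cofactors, all tested, 0 passed in either limma fit, with 0 and 1 at an unadjusted p under 0.05 and a median of 0.14. Aes, a Groucho-related gene (log2 fold change 0.58), and Tle3, a Groucho corepressor gene (-0.53), differed most.

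Of 32 genes described as targets of these factors, 24 were tested, 2 rose and 1 fell, with a median log2 fold change of 0.21. The risen genes were Gata2 and Itga2b, the integrin CD41 of megakaryocytes and early blood cells (log2 fold change 1.78, limma adjusted p = 0.027), and the fallen one was Csf1r, the macrophage colony-stimulating factor receptor (-1.67, adjusted p = 0.043). Itga2b stood at 22.9, 17.3 and 19.4 FPKM in Uhrf1-/- and at 4.58, 5.52 and 5.03 FPKM in wild-type LSK cells. Csf1r stood at 3.33, 2.55 and 2.55 FPKM in Uhrf1-/- and at 9.51, 14.0 and 10.05 FPKM in wild-type LSK cells. Neither passed when any 1 LSK library was left out (adjusted p 0.066 to 0.119 for Itga2b and 0.078 to 0.208 for Csf1r). With the replicate block Gfi1b, a repressor of the erythroid and megakaryocyte lineages (1.21, blocked limma adjusted p = 0.010), and Gp9, a platelet glycoprotein gene (1.07, 0.026), were also higher. In the blocked limma fit neither passed without replicate pair 2 (adjusted p = 0.118 for Gfi1b and 0.281 for Gp9) or pair 3 (0.165 and 0.205), and Gp9 did not pass on the count column (0.124) or in voom (0.125) with the block. Itga2b, Gata1 and Gata2 passed the blocked fit without any 1 pair, while Csf1r did not pass without pair 2 (0.104). Spi1, the gene of PU.1 and a classic Runx1 target, was at 323.7, 286.8 and 111.6 FPKM in Uhrf1-/- and at 384.6, 250.5 and 81.9 FPKM in wild-type cells. Its ranges overlapped between genotypes and it did not pass (limma adjusted p = 0.983).

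Markers of the cell types that could be in the sorted fraction were read beside these results. Their lists, too, were chosen with earlier results known, so the counts are no test. By limma, megakaryocyte markers had 2 higher of 7 tested (Treml1 and Itga2b), and with the block also Gp5 and Gp9. Their summed level was 188.3 to 276.4 FPKM in Uhrf1-/- and 106.2 to 192.2 FPKM in wild-type LSK cells. Among erythroid markers Car1 was higher of 9 tested, and with the block Epor was also higher and Rhd lower, with sums of 234.1 to 298.0 FPKM in Uhrf1-/- and 81.9 to 369.4 FPKM in wild-type LSK cells. The mast cell carboxypeptidase gene Cpa3 was higher of 3 mast cell and basophil markers tested, with sums of 71.9 to 85.2 FPKM in Uhrf1-/- and 16.0 to 36.3 FPKM in wild-type LSK cells. Of 8 lymphoid markers tested Ccr9 and Lax1 were lower, and with the block Flt3, Il7r, Ccr7 and Rag2 as well, with sums of 85.9 to 141.6 FPKM in Uhrf1-/- and 146.6 to 208.3 FPKM in wild-type LSK cells. Macrophage markers had 1 lower of 5 tested (Csf1r), with sums of 17.5 to 55.03 FPKM in Uhrf1-/- and 25.4 to 169.7 FPKM in wild-type LSK cells. The endothelial (11 tested), hepatoblast (6) and stromal and osteoblast markers (1) had 0 called in the limma fit with or without the block. At an unadjusted limma p under 0.05 stood 1, 0 and 0 of them without the block (5.57% of all tested genes). With the block 3, 1 and 0 did (12.0% of all tested genes). The endothelial genes Esam and Robo4 had log2 fold changes of 0.68 and -0.68, the hepatoblast genes Apoa1 and Apoa2 0.68 and 0.51, and the stromal gene Pdgfrb -0.06. Hepatoblast sums were 62.1 to 101.7 FPKM in Uhrf1-/- and 55.5 to 83.8 FPKM in wild-type LSK cells. Stromal sums were 2.70 to 3.40 FPKM in Uhrf1-/- and 2.36 to 4.20 FPKM in wild-type LSK cells. Of the 13 stromal and osteoblast genes listed, 4 were at 0 in all 7 libraries, among them the bone genes Sp7, Bglap and Ibsp. The part of such cells in the Runx2 values was not tested. Of 7 sort-defining and lineage genes tested, 0 passed without the block (2 at an unadjusted limma p under 0.05) and Slamf1 was higher with it, and Ly6a had a log2 fold change of 0.83 (adjusted p = 0.942). When 1 library was left out of the fit without the block, at most 1 gene of the partner and mast cell lists and 0 of every other list were called.

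The 3 members that varied most over the 7 libraries were Lyl1, Erg and Tal1, and for each the tested genes with the nearest profile were found by the root mean square difference of the centred log2(FPKM + 1) values. Nearest to Lyl1 were Chd8, Zc3h7b and Camk2g (0.13 to 0.16 log2 units), to Erg Bmp8a, Syde1 and Xylt2 (0.16 to 0.24), and to Tal1 Lmo4, Hsp90aa1 and Lyar (0.13 to 0.14). Lmo4, a relative of Lmo2, was at 33.1, 37.3 and 42.1 FPKM in Uhrf1-/- LSK, 71.7 FPKM in LK and 28.8, 15.64 and 22.6 FPKM in wild-type LSK cells. Chd8 was at 5.79, 4.02 and 14.4 FPKM in Uhrf1-/- LSK, 9.58 FPKM in LK and 6.31, 2.07 and 11.9 FPKM in wild-type LSK cells. With 7 libraries and 10608 genes close profiles are easily found, and the likeness is a description only.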

How the data were processed

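The deposited table holds 22680 genes with a count column and an FPKM column for each of 7 libraries. The submitters' processing notes name the mm10 build, TopHat2 2.0.9 and Cufflinks 2.1.1, without stated roles. FPKM values were used as deposited by the authors. The count column deposited by the authors is not whole and was treated as a scaled count signal: 96.5% to 97.7% of its values above 0 lie within 0.02 steps of a multiple of the library's step. Dividing by the step gave the estimated reads, which were used for depth and in limma-voom as an alternative only. No source used here gives the annotation or the strand setting.

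The genotype comparison was a two-sided limma fit (version 3.58.1, R 4.3.3) to log2(FPKM + 1), with trend and robust moderation. It took every gene whose average over the 6 LSK libraries reached 1 FPKM, with Benjamini-Hochberg adjustment over all of them. Same-numbered libraries deviated together from their groups (r = 0.349, 0.332 and 0.645 across genes, which are not independent replicates). Libraries 1 and 2 also did so across numbers (r = 0.213 for Uhrf1-/- 1 with wild-type 2, 0.159 for Uhrf1-/- 2 with wild-type 1). Replicate 3 did not (r from -0.591 to -0.287 with other numbers). Deviations within a group of 3 depend on each other, so these values cannot settle how libraries 1 and 2 pair. The numbers were read as pairs from the data, and the replicate block was an alternative. Fold changes on this scale understate those of low genes. Named genes were the 10 members, Gata2, Uhrf1, genes called in a list, the 2 largest differences per list and 3 nearest profiles for 3 members; Ldb1, Tcf3, Spi1 and the markers Cdh5, Kdr, Junb, the C1q, bone and sort genes were added after their values were seen. The members and lists were chosen with earlier results of these data known. Coordinates and promoter windows are from RefSeq GRCm38.p6, matched by gene ID.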

Additional observations from a re-analysis of the deposited data

How the results depend on the processing

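Across 19 alternatives to the genotype comparison (the replicate block, each library or pair left out, a pseudocount of 0.1, no filter on low values, median-of-ratios scaling, the count column, plain moderation, and voom on estimated reads, the last chosen after seeing the data) the number of members called stayed at 0 in both directions. The lowest adjusted p of a member was 0.099, for Tal1 in the blocked fit without replicate pair 1. The sign turned when 1 library was left out for 3 members, whose log2 fold changes then lay between -0.061 and 0.67 for Runx3, -0.0023 and 0.77 for Erg, and -0.20 and 0.89 for Lyl1 (-0.12 without Uhrf1-/- replicate 3). The ranges of the other members kept their sign: -0.43 to -0.086 for Runx1, -0.67 to -0.31 for Runx2, -0.73 to -0.14 for Cbfb, -0.53 to -0.14 for Fli1, -0.31 to -0.10 for Etv6, 0.43 to 0.79 for Tal1 and -0.46 to -0.15 for Lmo2. With the replicate block 0 members were called. The block cannot change the fold change in a balanced design of pairs, so the equal folds say nothing about stability. Gata2 was not called with no filter on low values (adjusted p = 0.150), with plain moderation (0.067) or with voom without the block (0.059), and the cause was not tested. Its log2 fold change was between 1.54 and 2.03 in all alternatives. Of the members, 1 was at least 1 log2 unit lower in LK than in wild-type LSK cells. This became 2 with a pseudocount of 0.1, 3 on the count column, and between 0 and 2 when a wild-type LSK library was left out. The LK difference of 5 members moved by more than the wild-type SD on the count column.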
